A study of Mus musculus with 8 samples.

Results

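The genes described here encode 9 enzymes that make the building blocks of DNA: the ribonucleotide reductase subunits Rrm1, Rrm2 and Rrm2b, the thymidylate and dUTP enzymes Tyms, Tk1 and Dut, the deoxynucleoside kinase Dck, and the de novo pyrimidine enzymes Cad and Umps. They were picked by symbol from a table of 53697 genes, with earlier results of the same libraries known, so the comparisons of Dll1+ with Dll1- cells and of the reporter lines that selected them are given as descriptions. RNA was sequenced from sorted mammary tumor cells of 4 mice in 8 libraries, a Dll1+ and a Dll1- library from every animal. All mice carried MMTV-PyMT, a polyoma middle T antigen transgene driven in the mammary epithelium by a viral promoter. In the 2 PyMT-Dll1-GFP mice the cells were sorted by GFP from a knock-in at the Dll1 locus that also holds an IRES and CreERT2, and in the 2 PyMT-Dll1-mCherry mice by mCherry, a reporter carried on a BAC. In both lines, tumors were digested with collagenase and hyaluronidase, and cells positive for CD45, CD31 or Ter119 were removed before sorting. The ages of the mice were not given in the sources used here. The mice are named below as GFP mouse 1 and 2 and mCherry mouse 1 and 2.

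Ribonucleotide reductase turns ribonucleotides into deoxyribonucleotides and sets the supply of precursors for DNA. The large subunit Rrm1 carries the catalytic site and pairs with a small subunit, either Rrm2, which dividing cells make in S phase, or Rrm2b, a p53 target that supplies nucleotides for DNA repair and for mitochondrial DNA outside S phase. Tyms makes thymidylate from dUMP with a folate cofactor, Dut removes dUTP and so keeps uracil out of DNA, and Tk1 and Dck phosphorylate deoxynucleosides taken up or recycled by the cell. Cad is a single protein with the opening 3 activities of pyrimidine synthesis, and Umps makes the UMP at its end.

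The libraries held 27301396 to 123907626 counts, with a median of 38191068, and mCherry mouse 1 Dll1- was the deepest. Levels are given as TMM-normalized CPM, in which counts are divided by library sizes scaled by TMM factors, here 0.94 to 1.06. Dll1, the gene of the sort, was 7.61 to 50.3 CPM in the Dll1- and 87.5 to 250 CPM in the Dll1+ libraries. The epithelial markers Epcam, Krt8, Krt18 and Cdh1 were present throughout, at a summed 4470 to 7600 CPM. The 6 fibroblast markers summed to 719 to 902 CPM in the 4 GFP libraries. In mCherry mouse 1 their sum was 5530 CPM in Dll1- and 2130 CPM in Dll1+ cells, and in mCherry mouse 2 it was 16300 and 2360 CPM. In bulk RNA, fewer cells of a type and less RNA per cell cannot be told apart.

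Promoters of the members were read from a RefSeq table on GRCm38.p6, which matched 8 of the 9 members by symbol, all but Rrm2b. The windows searched held 250 bases before to 50 bases after the annotated start. Shown here are the 90 bases from -110 to -21 of the 4 members with a match there, on the strand of the gene, with the matches in capitals. Positions are chr7:102441585-102441674 on the plus strand for Rrm1, chr12:24708144-24708233 on the plus strand for Rrm2, chr5:30073646-30073735 on the minus strand for Tyms and chr16:33967059-33967148 on the minus strand for Umps.
Rrm1: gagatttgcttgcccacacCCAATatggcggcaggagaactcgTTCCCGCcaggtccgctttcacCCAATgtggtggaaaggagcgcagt
Rrm2: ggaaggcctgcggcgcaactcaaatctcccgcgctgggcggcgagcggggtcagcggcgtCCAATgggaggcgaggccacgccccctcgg
Tyms: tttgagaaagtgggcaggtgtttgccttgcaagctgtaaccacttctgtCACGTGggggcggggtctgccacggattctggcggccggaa
Umps: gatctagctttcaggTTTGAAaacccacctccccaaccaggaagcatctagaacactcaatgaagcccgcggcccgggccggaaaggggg

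The motifs searched on both strands, with overlapping matches allowed, were the E2F core, the CCAAT box, an E-box and the cell-cycle motif known as CHR. The E2F core, TTNNCGC with C or G at each N, was in 9.57% of all 32851 promoter windows and in those of Rrm1, Rrm2 and Cad. Its first base lay at -67 in Rrm1, at -235 on the opposite strand in Rrm2 and at 37 bases after the start in Cad. The CCAAT box was in 37.4% of windows and in those of Rrm1, at -91 and -45, and Rrm2, at -50. The E-box CACGTG was in 7.15% of windows and, among the members, in that of Tyms, at -61. The CHR TTTGAA was in 17.9% of windows and in those of Umps, at -95, and Dck, at -245 on the opposite strand. These matches describe the letters of the windows only.

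The comparison of Dll1+ with Dll1- cells asked how tumor cells that express the Notch ligand Dll1 differ from the rest of the same tumor. In a fit with the mouse as a block, 7 of the 9 members passed an adjusted p of 0.05 and all 7 were lower in Dll1+ cells: Rrm1, Rrm2, Tyms, Dut, Dck, Cad and Umps. No member passed in the other direction. Of all 18322 genes tested, 7.04% were called lower and 6.98% higher. The median log2 fold change of the members was -0.66, against -0.00068 for all genes tested. Since the members were chosen on this contrast, nothing is read from their share.

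**Figure D1:**
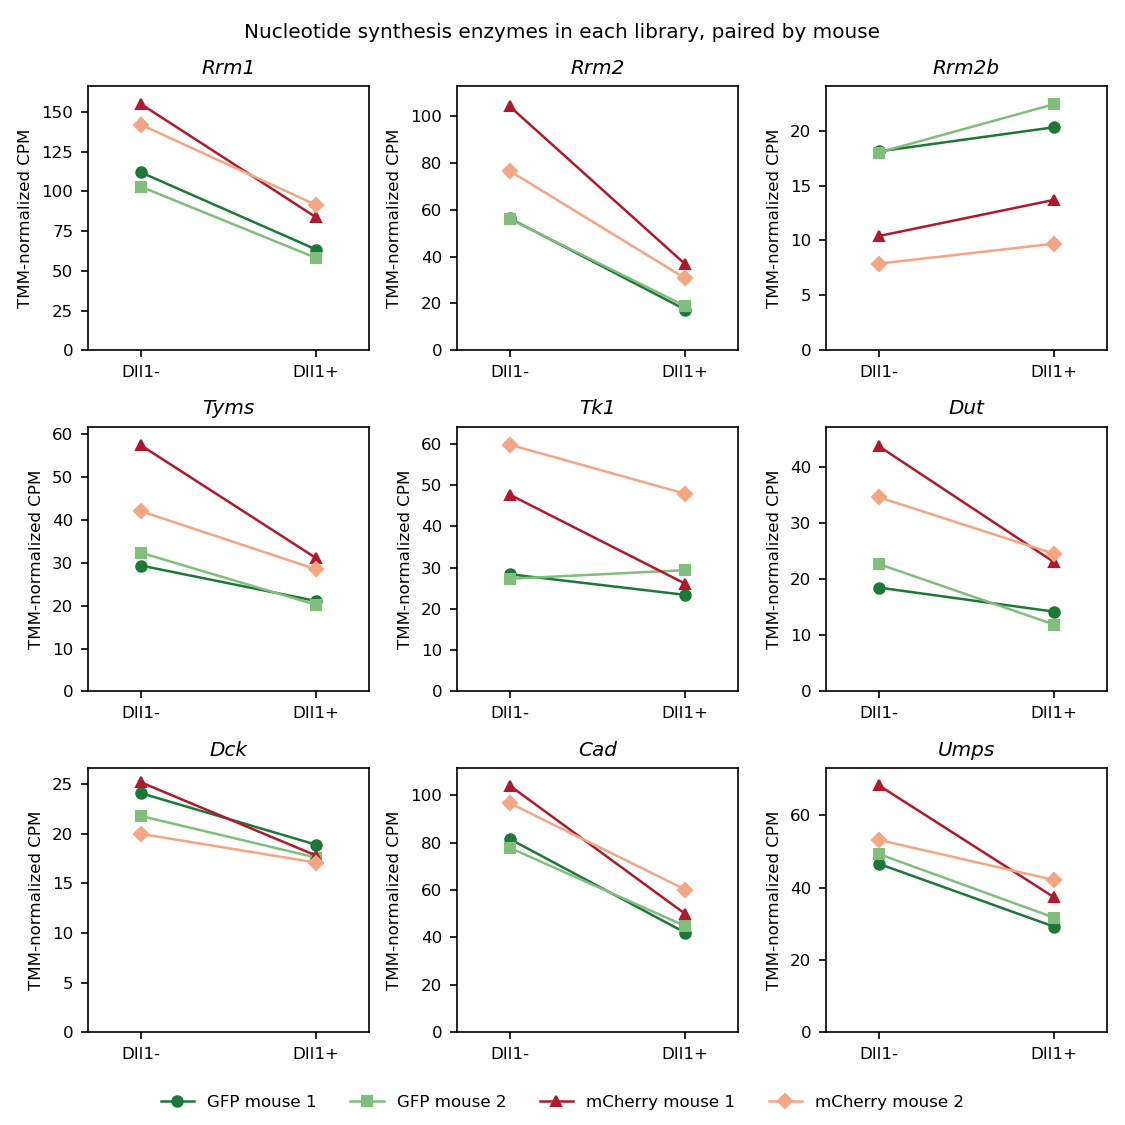
TMM-normalized CPM (vertical axes, linear, from 0) of the 9 enzymes in Dll1- and Dll1+ cells, with a line joining the libraries of each mouse. Lines fall from Dll1- to Dll1+ in all 4 mice for Rrm1, Rrm2, Tyms, Dut, Dck, Cad and Umps, the Rrm2b lines slope upward without passing the test, and the Tk1 line of GFP mouse 2 goes from 27.3 to 29.4 CPM.

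Rrm2 (ENSMUSG00000020649.11, chr12:24708241-24714146, GRCm38, plus strand), the small subunit of S phase, had the largest difference among the members. Its level was 56.3, 56.0, 104 and 76.5 CPM in the Dll1- cells of GFP mouse 1, GFP mouse 2, mCherry mouse 1 and mCherry mouse 2. In Dll1+ cells of the same mice it was 17.4, 18.9, 36.7 and 30.7 CPM. Every Dll1+ library lay below every Dll1- library. The means were 73.2 ± 22.7 CPM in Dll1- and 25.9 ± 9.36 CPM in Dll1+ cells (SD, n = 4). The log2 fold change was -1.52 (SE 0.076), a 2.86-fold lower level, and within mice it ran from -1.70 to -1.32.

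Rrm1 (ENSMUSG00000030978.10, chr7:102441695-102469771, plus strand), the catalytic subunit, was 112, 103, 155 and 142 CPM in the Dll1- cells of the mice in the same order. The Dll1+ values were 63.4, 58.1, 83.6 and 91.4 CPM. The groups did not overlap, and the mCherry mice were above the GFP mice in both. The log2 fold change was -0.79 (SE 0.061), a 1.73-fold lower level, with -0.89 to -0.64 within mice. A gene model of unknown status, Gm45399, lies inside Rrm1 on the same strand.

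Rrm2b (ENSMUSG00000022292.16, chr15:37923952-37961318, minus strand), the small subunit used outside S phase, had positive differences that did not pass the test. Its level was 18.1, 18.0, 10.4 and 7.89 CPM in Dll1- cells and 20.3, 22.4, 13.7 and 9.71 CPM in Dll1+ cells of the mice in the same order. The Dll1+ value was above the Dll1- value in each of the 4 mice, and the groups overlapped, with both sorted populations of the GFP mice above both of the mCherry mice. The log2 fold change of 0.30 (SE 0.078, 95% interval 0.11 to 0.49) did not pass the threshold (adjusted p = 0.0563, edgeR). It passed in 3 of 10 alternatives, with RLE size factors, with a minimum of 10 counts in every library and with DESeq2. In the other 7 it did not pass. Rrm2b overlaps the pseudogene Gm3362 on its own strand and the antisense gene Gm49085 on the other. Whether counts were shared with either was not tested.

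Because the transcripts differ in length, levels of different genes were compared as CPM per kilobase of the longest annotated transcript. In Dll1- cells Rrm2 (33.4 ± 10.3), Rrm1 (32.0 ± 6.14) and Tk1 (28.3 ± 10.9) were highest and lay within an SD of each other. Umps (15.6 ± 2.78), Dut (15.3 ± 5.88), Tyms (12.8 ± 4.0) and Cad (12.6 ± 1.74) followed, likewise within an SD of their neighbors. Dck (7.40 ± 0.757) was below these, and Rrm2b (2.98 ± 1.15) was lowest. In Dll1+ cells the highest were Tk1 (22.0 ± 7.69) and Rrm1 (18.5 ± 3.98), Rrm2 (11.8 ± 4.25) stood near Umps (10.1 ± 1.66) and Dut (9.44 ± 3.22), and Rrm2b (3.62 ± 1.29) was again lowest. The order depends on the length used: per kilobase of coding sequence, Rrm2 (22.2 ± 7.97) ranked 7 of 9 in Dll1+ cells. On that scale Cad (7.37 ± 1.2) was lowest in Dll1+ cells, below Rrm2b (15.7 ± 5.57), and in Dll1- cells Rrm2b (12.9 ± 4.98) and Cad (13.5 ± 1.86) lay within an SD.

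The small subunits were also set against each other. The ratio of Rrm2 to Rrm2b per kilobase was 6.47, 6.47, 20.8 and 20.2 in the Dll1- cells of GFP mouse 1, GFP mouse 2, mCherry mouse 1 and mCherry mouse 2. In Dll1+ cells it was 1.78, 1.75, 5.57 and 6.58. The ratio fell in every mouse, and at either Dll1 status the mCherry mice had the higher ratio. Its mean was 13.5 ± 8.10 in Dll1- and 3.92 ± 2.52 in Dll1+ cells, or 5.83 and 1.70 per kilobase of coding sequence. On that scale it was 0.771 and 0.759 in the Dll1+ cells of the GFP mice, so which small subunit was the higher there depends on the length used. The ratio of Rrm2 to Rrm1 was 0.916 to 1.22 in Dll1- and 0.500 to 0.800 in Dll1+ libraries, without overlap.

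**Figure D2:**
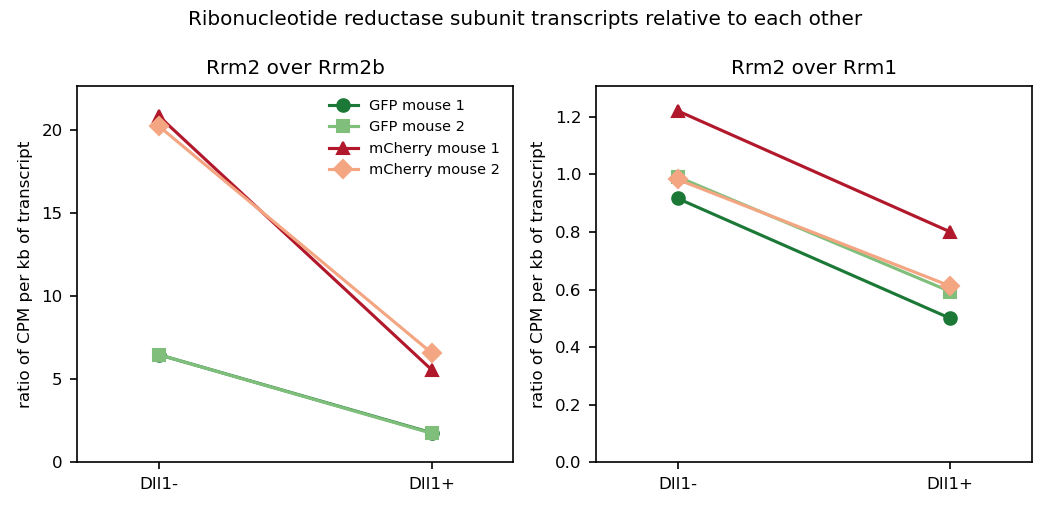
Ratios of CPM per kilobase of longest transcript (vertical axes, linear, from 0) for Rrm2 over Rrm2b and Rrm2 over Rrm1 in Dll1- and Dll1+ cells, with a line for each of the 4 mice. Each line falls, and the lines of GFP mouse 1 and GFP mouse 2 lie on each other for Rrm2 over Rrm2b (6.47 to 1.78 and 6.47 to 1.75).

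Tyms (ENSMUSG00000025747.12, chr5:30058202-30073617, minus strand), thymidylate synthase and the target of fluoropyrimidine drugs, was 29.4, 32.4, 57.5 and 42.1 CPM in Dll1- cells of the mice in the same order. In Dll1+ cells it was 21.1, 20.2, 31.1 and 28.5 CPM. It was lower in Dll1+ cells of each mouse, and the groups overlapped only through mCherry mouse 1 Dll1+, which was above GFP mouse 1 Dll1-. The log2 fold change was -0.66 (SE 0.083).

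Dut (ENSMUSG00000027203.15, chr2:125247190-125258608, plus strand), the dUTPase, was 18.5, 22.7, 43.7 and 34.6 CPM in Dll1- cells. The Dll1+ cells of the same mice had 14.2, 11.9, 23.0 and 24.5 CPM. Each mouse was lower in Dll1+ cells, and the mCherry Dll1+ libraries were above the GFP Dll1- libraries. The log2 fold change was -0.69 (SE 0.12), and within mice it ran from -0.93 to -0.39.

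Tk1 (ENSMUSG00000025574.13, chr11:117815526-117826092, minus strand), the cytosolic thymidine kinase of cycling cells, was the least uniform member. Its level was 28.4, 27.3, 47.7 and 59.8 CPM in Dll1- and 23.4, 29.4, 26.1 and 47.9 CPM in Dll1+ cells of the mice in the same order. It was lower in Dll1+ cells in 3 of 4 mice, with log2 differences of -0.28, -0.87 and -0.32, and was 0.11 in GFP mouse 2. The fitted log2 fold change was -0.34 (SE 0.16, 95% interval -0.73 to 0.045) and did not pass (adjusted p = 0.194, edgeR). Tk1 overlaps Afmid and Gm20708, both on the opposite strand.

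Dck (ENSMUSG00000029366.10, chr5:88764996-88783281, plus strand), the deoxycytidine kinase that also activates nucleoside drugs such as cytarabine and gemcitabine, differed least among the members that passed. It was 24.1, 21.8, 25.2 and 20 CPM in Dll1- and 18.9, 17.6, 17.8 and 17.1 CPM in Dll1+ cells. The groups did not overlap, and the GFP and mCherry values were mixed within each. The log2 fold change was -0.35 (SE 0.073).

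Cad (ENSMUSG00000013629.16, chr5:31054780-31078479, plus strand) was 81.5, 77.8, 104 and 96.6 CPM in the Dll1- cells of the 4 mice. In Dll1+ cells it was 42.0, 44.8, 49.9 and 60.2 CPM. All Dll1+ values lay below all Dll1- values. The means were 89.9 ± 12.2 and 49.2 ± 7.98 CPM (SD, n = 4), and the log2 fold change of -0.87 (SE 0.075) was the largest after that of Rrm2.

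Umps (ENSMUSG00000022814.6, chr16:33954782-33967038, minus strand) was 46.6, 49.3, 68.3 and 53.2 CPM in Dll1- and 29.2, 31.7, 37.3 and 42.1 CPM in Dll1+ cells. The groups did not overlap, and mCherry mouse 2 had the smallest difference, a log2 value of -0.34. The fitted log2 fold change was -0.63 (SE 0.094). Umps overlaps the antisense gene Gm15829 at its start.

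The number of members that passed depended on the terms of the fit and on the mice in it. Without a term for the mouse or the reporter line, 0 of 9 members and 0 of all genes passed. In that fit 6 of 9 members had an unadjusted p under 0.05 (edgeR), as did 1624 of 18322 genes. With the line as a term in place of the mouse, chosen after seeing the data, 6 members were lower, as were 765 of 18322 genes. Without mCherry mouse 1, 3 of 9 were lower, Rrm1, Rrm2 and Cad, as were 207 of 17740 genes.

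The same contrast was fitted within each reporter line, with 2 mice a line and a shared spread. In the GFP mice 5 members were called lower, Rrm1, Rrm2, Tyms, Cad and Umps, where 4.84% of all genes were. In the mCherry mice 6 were called lower, the same 5 and Dut, where 6.25% of all genes were. Rrm2 had a log2 fold change of -1.63 (SE 0.093) in GFP and -1.41 (SE 0.089) in mCherry mice. Cad was -0.87 (SE 0.11) in either line.

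The difference between the lines' effects was itself tested, as the GFP effect minus the mCherry effect. None of the 9 members passed in edgeR or in DESeq2, and 0.0710% of all genes passed in edgeR. At an unadjusted p under 0.05 there were 0 members in edgeR and 1 in DESeq2, beside 2420 and 1787 of 18322 genes. The largest difference was that of Tk1, at 0.51 on the log2 scale (95% interval -0.064 to 1.09). For Rrm2 it was -0.22 (interval -0.53 to 0.086), for Cad -0.0041 (interval -0.37 to 0.36) and for Dut 0.052 (interval -0.54 to 0.64). These intervals include differences as large as the smaller of the members' own fold changes.

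Markers of other cell types were followed beside the members. Of 3 basal markers measured, only Krt5 was called higher in Dll1+ cells over 4 mice, with a log2 fold change of 2.77 (SE 0.25). Krt5 had 2.30 (SE 0.20) in GFP and 3.19 (SE 0.19) in mCherry mice. Krt14 and Myh11 did not pass over 4 mice, at 1.55 (SE 0.36) and 0.66 (SE 0.34). In the mCherry mice Krt14 was called higher as well, at 2.22 (SE 0.31). Myh11 was lower in Dll1+ cells of mCherry mouse 2, with a log2 difference of -0.41. The basal sum was 68.5 to 226 CPM in Dll1- and 130 to 732 CPM in Dll1+ libraries, and it was higher in Dll1+ cells of each mouse. In the GFP mice 0 of 6 fibroblast and 0 of 3 pericyte markers were called, and their median log2 fold changes were -0.038 and -0.20. In the mCherry mice 3 of 6 fibroblast, 3 of 3 pericyte and 4 of 5 immune markers were lower in Dll1+ cells, with medians of -2.26, -2.54 and -1.14. The member median was -0.66 in the GFP and -0.71 in the mCherry mice. The part of these markers in the members' difference was not tested.

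**Figure D3:**
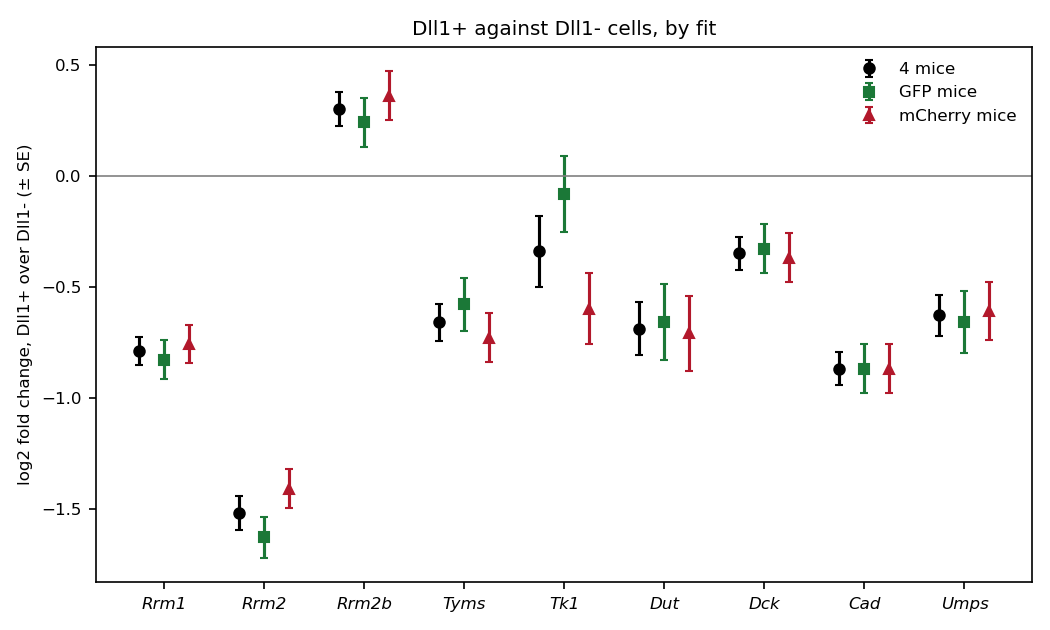
Log2 fold change of Dll1+ over Dll1- cells (vertical axis, with SE as bars) for the 9 enzymes, from the fit over 4 mice (black circles), the GFP mice (green squares) and the mCherry mice (red triangles). Rrm2 lies lowest in all 3 (-1.52, -1.63 and -1.41), Rrm2b is above 0 in all 3, and Tk1 has the widest gap between the lines.

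The members were also compared between the lines at the same Dll1 status. Line, mouse and tumor cannot be told apart here, since no mouse carried both reporters, and each line has 2 mice. In Dll1- cells 5 members were higher in mCherry mice, Rrm1, Rrm2, Tyms, Tk1 and Dut, and Rrm2b was lower, against 18.7% and 17.9% of all genes in those directions. In Dll1+ cells Rrm1, Rrm2, Tyms and Dut were higher and Rrm2b lower, with 15.2% and 15.4% of all genes. Dut had log2 fold changes of 0.93 (SE 0.17) in Dll1- and 0.87 (SE 0.17) in Dll1+ cells, and Rrm2 of 0.69 (SE 0.16) and 0.89 (SE 0.17).

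Rrm2b was lower in the mCherry mice at either Dll1 status. Its mean was 18.0 CPM in GFP and 9.13 CPM in mCherry Dll1- cells, and 21.4 and 11.7 CPM in Dll1+ cells, with no overlap between the lines. The log2 fold changes were -0.98 (SE 0.21) and -0.86 (SE 0.21). Dck did not pass between the lines, at -0.018 (95% interval -0.36 to 0.32) in Dll1- and -0.062 (interval -0.40 to 0.28) in Dll1+ cells.

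The line calls did not hold without GFP mouse 1 or without GFP mouse 2, and each of these fits leaves 1 GFP mouse. The members' median log2 fold change, mCherry over GFP, was 0.52 in Dll1- and 0.31 in Dll1+ cells without GFP mouse 1. It was 0.38 and 0.45 without GFP mouse 2. In Dll1- cells 6 of 6 fibroblast, 3 of 3 pericyte, 5 of 5 immune and 5 of 5 endothelial markers were higher in mCherry mice. In Dll1+ cells 3 of 6 fibroblast, 3 of 3 pericyte, 3 of 5 immune and 1 of 5 endothelial markers were. Of 10 proliferation genes, 8 were higher in mCherry Dll1- and 9 in mCherry Dll1+ cells, against 18.7% and 15.2% of all genes. So were 27 and 35 of 52 G2/M genes of the list that ships with Seurat. The part of these genes in the members' difference was not tested.

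**Figure D4:**
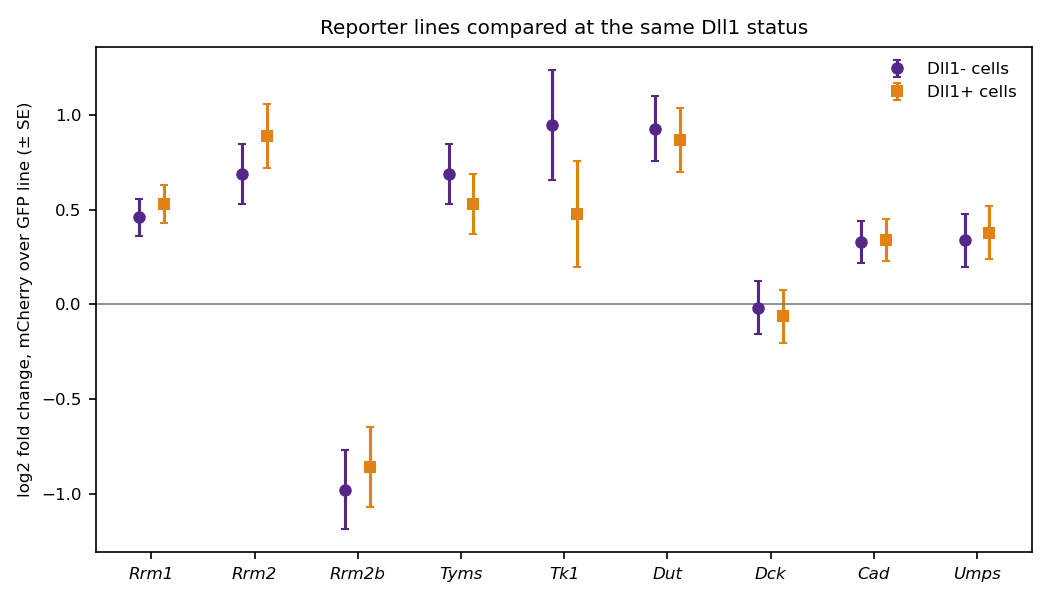
Log2 fold change of mCherry over GFP mice (vertical axis, with SE as bars) for the 9 enzymes in Dll1- cells (purple circles) and Dll1+ cells (orange squares). Rrm2b is near -0.9 in both (-0.98 and -0.86), Dck is near 0, and Dut and Rrm2 have the highest values in Dll1+ cells (0.87 and 0.89), where Tk1 (0.48) did not pass.

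Genes around these enzymes were listed by role, 75 symbols with synonyms included, of which 69 were in the table and 67 were tested. Over 4 mice, 19 of the 67 fell in Dll1+ cells and 3 rose, against 7.04% and 6.98% of the whole table, and their median log2 fold change was -0.18. In the GFP mice 15 were lower and 0 higher, against 4.84% and 4.29% of all genes. In the mCherry mice 10 were lower and 0 higher, against 6.25% and 5.51%. The role counts below are over 4 mice, where the shares of all genes are the same 7.04% and 6.98%. For none of the 67 did the difference between the lines' effects pass. The list was written with earlier results of these libraries known.

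The folate enzymes feed carbon units to thymidylate and purine synthesis, and 6 of 11 were lower. Mthfd1l, a mitochondrial enzyme of that supply, had a log2 fold change of -1.21 (SE 0.16), Shmt1, the cytosolic serine hydroxymethyltransferase, of -0.59 (SE 0.079) and Fpgs, which adds the glutamate tail that keeps folate in the cell, of -0.40 (SE 0.056). Mthfd1l was 9.11, 8.01, 17.1 and 15.0 CPM in the Dll1- cells and 3.31, 2.95, 6.85 and 9.44 CPM in the Dll1+ cells of the mice in the same order. It was lower in each mouse, and mCherry mouse 2 Dll1+ was above both GFP Dll1- libraries.

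Of 7 other genes of deoxynucleotide supply, 3 were lower and 1 higher. Dctpp1, a dCTP pyrophosphatase, had a log2 fold change of -0.56 (SE 0.099) and Dctd, the dCMP deaminase, -0.43 (SE 0.083). Dtymk, the kinase after Tyms and Tk1, was -0.29 (SE 0.077) and did not pass (adjusted p = 0.0554, edgeR).

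The mitochondrial counterparts of Tk1 and Dck had positive values. Tk2, the mitochondrial thymidine kinase, was higher in Dll1+ cells of each mouse, with a log2 fold change of 0.26 (SE 0.062). Its level was 25.2, 25.3, 22.3 and 18.8 CPM in Dll1- and 28.5, 32.1, 26.7 and 22.8 CPM in Dll1+ cells. Dguok, the mitochondrial deoxyguanosine kinase, had 0.20 (SE 0.068) and did not pass (adjusted p = 0.106, edgeR). The call of Tk2 was lost without any of the 4 mice in turn.

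Among 12 other pyrimidine genes, 4 were lower and 1 higher. Cda, the cytidine deaminase, was -0.87 (SE 0.12), Ctps, which makes CTP, -0.69 (SE 0.11), Uck2, a uridine-cytidine kinase, -0.59 (SE 0.090), and Uckl1, a related kinase, 0.39 (SE 0.075). Nme1, named after its value was seen, was -0.44 (SE 0.099). Dhodh, the mitochondrial enzyme whose step lies between those of Cad and Umps, did not pass, at -0.093 (SE 0.073), where both of its pathway neighbors were lower.

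In de novo purine synthesis 3 of 13 genes were lower and 1 higher. Ppat, which catalyzes the committed step, was -0.55 (SE 0.10), Gart -0.48 (SE 0.078) and Adsl -0.40 (SE 0.070), while Adssl1, an adenylosuccinate synthase isozyme known from muscle, was 0.38 (SE 0.094). Of 8 purine salvage and kinase genes 1 was lower. Of 12 breakdown genes 2 were lower, the adenosine deaminase Ada at -0.74 (SE 0.083) and Upb1, which ends pyrimidine breakdown, at -0.81 (SE 0.20). Samhd1, which breaks down deoxynucleotides, was 0.15 (SE 0.070) and did not pass, and of 4 nucleoside transporters 0 passed.

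**Figure D5:**
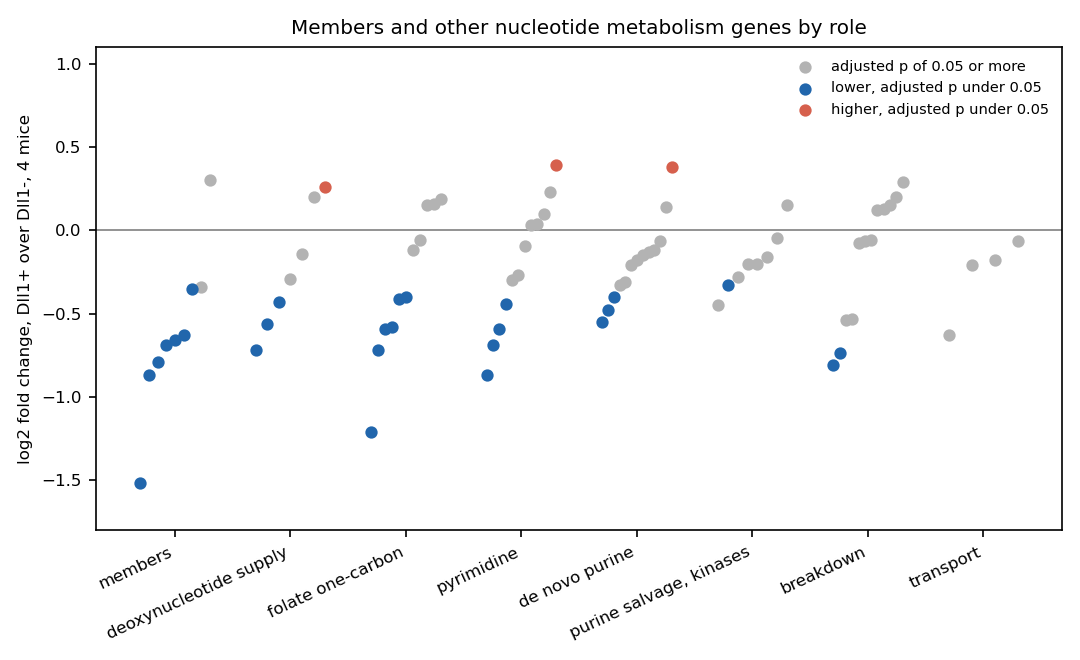
Log2 fold change of Dll1+ over Dll1- cells in the fit over 4 mice (vertical axis) for the 9 enzymes and 67 other nucleotide metabolism genes, in columns by role, each point a gene. Blue points are lower and red points higher at an adjusted p under 0.05, where 7.04% of all genes tested were lower. Blue points are 7 of the 9 enzymes, 6 of 11 folate genes and 3 of 7 deoxynucleotide supply genes. They are also 4 of 12 pyrimidine, 3 of 13 de novo purine, 1 of 8 purine salvage and kinase, 2 of 12 breakdown and 0 of 4 transport genes.

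Proliferation genes moved in the same libraries. All 10 genes of a proliferation list were lower in Dll1+ cells over 4 mice, where 7.04% of all genes tested were. Of Seurat's lists, 33 of 40 S phase genes without nucleotide genes and 43 of 52 G2/M genes were lower. The medians of the proliferation, S phase and G2/M genes were -1.10, -0.74 and -0.98. Rrm1, Rrm2 and Tyms are themselves on Seurat's S phase list of 43. Mki67 was -1.35 (SE 0.17) and Pcna -0.53 (SE 0.081). Whether the members' difference goes beyond that of cycling cells was not tested.

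Of 15 p53 targets without Rrm2b, 4 were higher and 0 lower, against 6.98% and 7.04% of all genes tested. Their median was 0.21, and 11 had positive and 4 negative values. The 4 called higher were Mdm2 at 0.21 (SE 0.052) and, named after their values were seen, Sesn2 at 0.38 (SE 0.073), Btg2 at 0.54 (SE 0.087) and Trp53inp1 at 1.32 (SE 0.084). Cdkn1a was 0.62 (SE 0.27) and did not pass (adjusted p = 0.186, edgeR). Tigar, also named after its value was seen, was lower in Dll1+ cells of each of the 4 mice. Its log2 fold change of -0.63 (SE 0.16) did not pass (adjusted p = 0.0538, edgeR).

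The genes most like a member were found by Pearson correlation of log2 CPM over the 8 libraries, among 9821 candidates with a mean of at least 10 CPM. The libraries share mice and lines, so the values are descriptions. For Rrm2 they included Plk1 (0.995) and Aacs (0.994), for Cad they were Clspn (0.991), Pole (0.990) and Dhx29 (0.989), and for Rrm2b they were 4933431E20Rik (0.994), Dixdc1 (0.992) and Phkb (0.991). A correlation above 0.9 was reached by 325 genes for Rrm2, 213 for Cad and 847 for Rrm2b.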

How the data were processed

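The authors mapped stranded reads of 8 libraries with salmon to GENCODE M20 transcripts (GRCm38.p6), used tximport for gene sums and deposited these estimated counts, whole numbers without normalization. No column of per-sample values was left unused (0). The test was that of edgeR 4.0.16 under R 4.3.3 (TMM, filterByExpr, robust quasi-likelihood F test), with the mouse as a block, as in the study's 2-factor model, and Benjamini-Hochberg adjustment over 18322 genes. Line comparisons used 4 group means without a block. Replicates were separate mice. Pairs come from the mouse named for each library, and deviations within pairs correlated at -0.047 in GFP and 0.55 in mCherry mice. Intervals cover 95%, and a prior count of 2 was added for log2 CPM.

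The members and lists were chosen with earlier results of these data known. The genes named are the members, up to 3 higher and 3 lower per role with the lowest p, set paralogs and partners, Mki67, Pcna, Cdkn1a, Mdm2, Dll1 and the 3 genes most like Rrm2, Rrm2b and Cad. Some genes that this rule would name are not reported here. Seurat 5.3.0 gave the phase lists. Alternatives were RLE size factors, DESeq2 1.42.0, other filters, no block, each line alone and each mouse left out. Correlations between members were not given, since the 8 libraries come from 4 mice. Scripts were tested on simulated counts. Total counts limit precision only for rare genes.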

Additional observations from a re-analysis of the deposited data

Results flagged for a closer look

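Values that stood apart were sought among the 4 libraries of a Dll1 status, or the 4 mice, for 36 genes, in 108 groups. A value was marked where its gap to the nearest other exceeded Dixon's 95% critical share of the range, which chance gives in about 1 in 20 groups, and 4 were marked. No member was among them. Cda was 38.0 CPM in mCherry mouse 1 Dll1-, above the other Dll1- libraries. Upb1 was 6.93 CPM in mCherry mouse 1 Dll1+, above the other Dll1+ libraries. Dtymk had a log2 difference of -0.52 in mCherry mouse 1, lower than in the other 3 mice. Cdkn1a was 231 CPM in GFP mouse 2 Dll1+, above the other Dll1+ libraries. GFP mouse 2 was also the mouse in which Tk1 was higher in Dll1+ cells.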

How the results depend on the processing

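No result reversed. The count of 7 members lower over 4 mice ranged from 3 to 7 without each mouse in turn, lowest without mCherry mouse 1, and was 7 with RLE size factors, DESeq2 or other filters. Rrm2b was called higher as well, which made 8 members, with RLE size factors, DESeq2 or at least 10 counts in every library. Rrm1, Rrm2 and Cad kept their call in every alternative but 1, the fit without the replicate block. That fit called 0 members, 0 other nucleotide genes and 0 of all genes, of which 1624 had an unadjusted p under 0.05 in edgeR. With the reporter line as a term in place of the mouse, an alternative chosen after seeing the data, 6 members, 13 other nucleotide genes and 1352 of all genes passed, against 2568 in the reported fit. The 22 other nucleotide genes called ranged from 1 (without GFP mouse 1 or without mCherry mouse 1) to 21 without each mouse in turn. DESeq2 called 4362 of all genes over 4 mice, and 405 to 2400 passed without each mouse.

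Within lines, the GFP count of 5 members was 0 to 5 without each mouse (0 without either GFP mouse, where the other is assumed to vary like the rest), and the mCherry count of 6 was 3 to 6. Both were 3 without the block. Fitted alone, the mCherry mice gave 0 members and 0 of all genes (8 members and 5512 genes at an unadjusted p under 0.05), and the GFP mice 5 members. Of all genes, 1673 passed in GFP and 2154 in mCherry mice, 3001 and 3637 without a filter, and 274 and 212 without the block. The difference between lines' effects was called in 0 members in every alternative and in 13 of all genes, with 0 to 717 without each mouse, 540 in DESeq2, 44 with at least 10 counts in every library and 1143 without a filter. Member counts between lines were 0 to 8 without each mouse in both Dll1- (6 reported) and Dll1+ cells (5 reported), and 6 and 5 with the replicate number as a block, which joins different mice. A scale by coding length multiplies a subunit ratio by the same factor in every library, so it could not change the direction within a mouse. It took Rrm2 over Rrm2b below 1 in the Dll1+ cells of both GFP mice (0.771 and 0.759). With 4 mice, a difference near the spread between mice, such as that of Rrm2b, could pass or miss the threshold with small changes of method. Tk1 over 4 mice did not pass in any of the 10 alternatives.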
